A study of Homo sapiens with 42 samples.

Results

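Untreated RD cells, an established line from a rhabdomyosarcoma (a tumour with features of skeletal muscle), were compared with untreated A375 cells, an established melanoma line, by the places where their chromatin was open. The series holds 42 samples of 7 human cancer cell lines, each given the solvent DMSO or FHT-1015, an inhibitor of the chromatin remodelling ATPases SMARCA4 and SMARCA2, for 4 h. The comparison used 6 of the 42 samples, 3 of RD and 3 of A375, all labelled WT in genotype and all kept in DMSO for 4 h as the negative control. The 3 FHT-1015 samples of each line and the 15 DMSO samples of the other 5 lines served to look at the same regions in samples that had no part in choosing them. Replicates are labelled as biological, but nothing states that they were separate thaws or passages, so a p-value measures the spread between these samples. Each tumour type was represented by 1 line, so tumour type and line cannot be told apart.

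In ATAC-seq a transposase inserts adapters into DNA that nucleosomes leave open, and the reads pile up over active promoters and enhancers. MYOD1, MYOG, MYF5 and MYF6 are basic helix-loop-helix factors that bind E-boxes and drive skeletal muscle differentiation, and rhabdomyosarcoma cells are known to express MYOD1. SOX10 and MITF, an HMG-box and a leucine zipper factor, direct the melanocyte lineage and the pigment genes, and PAX3 acts in the precursors of both lineages.

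Regions were windows of 500 bp around peak summits, and a window counted as called in a sample when a deposited peak overlapped it by at least 100 bp. A total of 592304 windows came from the 6 lists. Of these, 16010 windows (2.70% of all) were called in all 3 RD samples and in no A375 sample, and are named RD-only. Another 22907 windows (3.87%) were called in all 3 A375 samples and in no RD sample, and are named A375-only. All 6 samples shared 26349 windows (4.45%). These counts follow from the rule and were not tested. The marker genes went with the labels: RD-only windows lay at MYOD1 and A375-only windows around SOX10, as detailed with the gene lists.

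Promoters that carried these windows are shown first, since their sequence was not used to choose them. They are RefSeq promoters (GRCh38.p14, 250 bases before to 50 after the start, written 5′ to 3′ in the direction of the gene). Of 28 skeletal muscle genes with a promoter sequence, 12 had a promoter that a peak overlapped by at least 100 bp in all 3 RD samples and no A375 sample, and 9 of these 12 held CAGCTG or CAGGTG, the E-box letters associated with myogenic factors. Either hexamer was in 33.7% of all 15812 promoters in the table, 43.8% of the 354 RD-only ones and 34.8% of the 250 A375-only ones. Capitals mark these letters on either strand (CAGGTG reads CACCTG on the other). CHRNA1 (the alpha subunit of the muscle acetylcholine receptor, chr2:174764423-174764722, minus strand), MUSK (the receptor kinase that organises the neuromuscular junction, chr9:110668541-110668840, plus strand), KLHL41 (a kelch protein of the sarcomere, chr2:169509452-169509751, plus strand) and CKM (muscle creatine kinase, chr19:45322826-45323125, minus strand) are examples with CAGCTG. MYOG (myogenin, chr1:203085963-203086262, minus strand) is shown because it was RD-only without either hexamer.
CHRNA1: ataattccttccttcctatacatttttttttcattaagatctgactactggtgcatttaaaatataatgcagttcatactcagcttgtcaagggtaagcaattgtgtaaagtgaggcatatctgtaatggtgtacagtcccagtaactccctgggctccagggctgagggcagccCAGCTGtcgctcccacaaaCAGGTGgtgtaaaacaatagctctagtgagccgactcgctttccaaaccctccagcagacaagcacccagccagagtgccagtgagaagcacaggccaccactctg
MUSK: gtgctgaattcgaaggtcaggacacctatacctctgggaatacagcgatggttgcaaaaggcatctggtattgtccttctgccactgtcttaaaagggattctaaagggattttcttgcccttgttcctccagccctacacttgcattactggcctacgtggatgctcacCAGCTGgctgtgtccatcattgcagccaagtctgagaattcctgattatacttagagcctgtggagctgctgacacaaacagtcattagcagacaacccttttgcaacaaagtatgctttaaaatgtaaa
KLHL41: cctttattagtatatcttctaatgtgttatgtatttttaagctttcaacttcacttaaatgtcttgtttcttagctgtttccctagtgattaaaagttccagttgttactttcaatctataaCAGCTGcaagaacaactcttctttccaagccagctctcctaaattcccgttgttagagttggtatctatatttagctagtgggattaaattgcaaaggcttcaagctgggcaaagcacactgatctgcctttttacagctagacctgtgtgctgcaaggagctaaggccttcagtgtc
CKM: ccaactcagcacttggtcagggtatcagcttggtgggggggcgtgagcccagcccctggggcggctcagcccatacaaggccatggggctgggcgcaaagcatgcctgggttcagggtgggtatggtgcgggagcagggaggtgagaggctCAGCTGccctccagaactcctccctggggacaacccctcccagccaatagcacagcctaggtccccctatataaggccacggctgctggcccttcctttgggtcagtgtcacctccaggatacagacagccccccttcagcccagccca
MYOG: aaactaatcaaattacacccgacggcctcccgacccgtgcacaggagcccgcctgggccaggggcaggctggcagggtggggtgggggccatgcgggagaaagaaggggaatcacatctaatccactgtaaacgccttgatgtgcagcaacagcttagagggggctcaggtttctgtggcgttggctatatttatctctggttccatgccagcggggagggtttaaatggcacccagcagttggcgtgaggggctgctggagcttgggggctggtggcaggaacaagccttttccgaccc

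Of 27 melanocyte genes with a promoter sequence, 3 promoters were called in all A375 samples and no RD sample. Among all 15812 promoters 250 were called in this way. CDH19 (a cadherin of Schwann cells and melanoma, chr18:66604041-66604340, minus strand) and MIA (a secreted melanoma protein, chr19:40774910-40775209, plus strand) each held 1 match to ACAAAG, letters associated with SOX factors. S100A1, a calcium-binding protein, held no match to ACAAAG, to the second SOX hexamer searched, ACAATG, or to the letters TCATGTG associated with MITF. Capitals mark ACAAAG, which reads CTTTGT on the other strand.
CDH19: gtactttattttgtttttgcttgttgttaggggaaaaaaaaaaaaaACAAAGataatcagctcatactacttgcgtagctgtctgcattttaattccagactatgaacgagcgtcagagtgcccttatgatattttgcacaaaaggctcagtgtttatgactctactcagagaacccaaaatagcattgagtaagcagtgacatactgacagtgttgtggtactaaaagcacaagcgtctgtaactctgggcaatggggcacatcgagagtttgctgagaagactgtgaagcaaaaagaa
MIA: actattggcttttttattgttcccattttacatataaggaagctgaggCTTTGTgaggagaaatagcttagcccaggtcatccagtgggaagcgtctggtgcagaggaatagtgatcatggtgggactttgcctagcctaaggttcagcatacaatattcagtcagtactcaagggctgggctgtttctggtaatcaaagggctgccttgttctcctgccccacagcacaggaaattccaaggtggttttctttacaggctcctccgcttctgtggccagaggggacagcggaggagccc

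Over all promoters in the table, not only those of the lists, 354 were RD-only and 250 were A375-only. CAGCTG was in 26.6% of the RD-only promoters (95% Wilson interval 22.2% to 31.4%), in 15.2% of the A375-only ones (11.3% to 20.2%), in 16.5% of the 8477 promoters called in all 6 samples and in 17.7% of all 15812. ACAAAG was in 11.3% of the RD-only promoters (8.41% to 15.02%), 22.4% of the A375-only ones (17.7% to 28.0%) and 12.8% of all. Among the 3807 promoters called in no sample it was in 19.4%, which lies within the A375-only interval. ACAATG had the same order, with 7.34% against 15.2% and 13.6% of the promoters called in no sample, and so did TGANTCA, the AP-1 letters, with 5.08% (3.24% to 7.89%) against 15.2% (11.3% to 20.2%) and 8.64% of the promoters called in no sample. CAGGTG did not separate the lines, at 22.9% of the RD-only, 22.4% of the A375-only and 19.9% of all promoters. GCCNNNGGC, associated with TFAP2 factors, was the more frequent in RD-only promoters (37.6% against 18.8%). It was in 34.9% of the shared promoters, 14.7% of those called in no sample and 28.3% of all. CCGGAAG, associated with ETS factors, was in 22.4% of the shared promoters but in 3.67% and 7.60% of the line-only ones. Of the other motifs searched, GGGCGG was in 60.5% of the RD-only and 45.6% of the A375-only promoters, 77.8% of the shared ones and 58.5% of all. CACGTG was in 6.21% and 8.40% of the line-only sets and 8.87% of all, and TGTGGTT (RUNX) in 2.82%, 6.0% and 3.55%. Each of the remaining ones was in at most 4.40% of either line-only set. Base composition also differed between the sets. The median GC content was 65.7% in RD-only, 58.2% in A375-only and 66.7% in shared promoters, and 50.7% in those called in no sample. Its part in the motif shares was not tested. The intervals cover counting error only, promoters are not independent replicates, and a match describes letters, not binding.

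The 6 lists were of similar length but not of similar strength. They held between 209804 and 242304 peaks per sample in RD and between 181865 and 227265 in A375. Peaks whose −log10 q reached 5 or more are called strict here, and they numbered 41806 to 48752 in RD and 60943, 65602 and 26365 in A375 replicates 1, 2 and 3, so A375 replicate 3 stood apart. The lists give no read counts, and a background pileup recovered from them as a stand-in for relative depth lay between 0.817 and 1.19 in RD and between 0.606 and 0.901 in A375. For strict peaks the Jaccard index of the windows called, those in both samples over those in either, was 0.705 to 0.715 within RD, 0.445 to 0.681 within A375 and 0.338 to 0.355 between the lines. Over peaks of any strength, from which the line-only windows were called, it was lower and the lines changed order, at 0.2237 to 0.25003 within RD, 0.277 to 0.363 within A375 and 0.1396 to 0.180 between the lines. With a bulk assay, a weaker opening in every cell and an opening in fewer cells cannot be told apart.

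Most of the line-only windows called from all deposited peaks lay far from gene starts, as did most of all windows. Within 1 kb of the start of a protein-coding gene lay 5.70% of the RD-only windows (95% Wilson interval 5.35% to 6.07%) and 3.10% of the A375-only windows (2.89% to 3.34%), against 59.4% of the shared windows and 5.15% of all windows. The median distance to a start was 49.5 kb for RD-only, 64.2 kb for A375-only, 0.589 kb for shared and 58.4 kb for all windows. Of the RD-only windows 54.8% lay inside a gene, and of the A375-only windows 46.3%. This held for 54.3% of the shared windows and 48.3% of all windows. The share near starts depended on the strength asked of a peak: among the 3923 RD-only windows with a strict peak in all 3 RD samples it was 10.4%, and among the 4375 such A375-only windows 4.00%. With windows called from the 10000 strongest peaks of each list, 57.1% of the RD-only windows lay near a start, a majority, and 24.0% of the A375-only ones. After thinning to a common background the shares were 22.2% and 6.97%.

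A larger share of strong RD peaks than of strong A375 peaks stood at gene starts. Of the strict peaks, 53.6%, 52.7% and 56.2% lay within 1 kb of a start in RD replicates 1, 2 and 3, and 36.7%, 36.4% and 48.3% in A375. The groups did not overlap, and A375 replicate 3, the sample with the fewest strict peaks, was the nearest to RD. The difference was 13.7 percentage points (exact permutation test, two-sided, p = 0.1, n = 3 and 3). With 3 samples against 3 the smallest p possible is 0.1, so no comparison of this size can pass 0.05. Among the 10000 strongest peaks of each list the shares were 74.2%, 74.6% and 74.5% in RD and 54.3%, 56.6% and 60.1% in A375. Over all deposited peaks, most of them weak, the difference was −0.308 points.

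The skeletal muscle genes as a group carried RD-only windows at their starts. Of 44 genes, 20 (45.5%) had an RD-only window within 1 kb of the start, against 4.21% of all 19974 protein-coding genes, and 1 (ACTC1) had an A375-only window there, against 3.44% of all genes. Of the 20, 12 (27.3% of the list, against 2.41% of all genes) had such a window in an RD interval that touched no A375 interval. In the gene with 100 kb on each side, a span called its locus here, 28 of the 44 genes had more RD-only than A375-only windows and 12 had more A375-only, where over all genes these were 34.0% and 45.5%. The median difference was 1.5 windows per locus, with a median of 0 over all genes. At least 1 RD-only window lay in 43 of the 44 loci (67.5% of all genes) and at least 1 A375-only window in 38 (76.4% of all genes). A window shared by all 6 samples was at the start of 12 genes, against 56.0% of all genes, and in 43 loci, against 89.2%. The list was chosen with earlier results of these data known, so its count is a description.

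**Figure D1:**
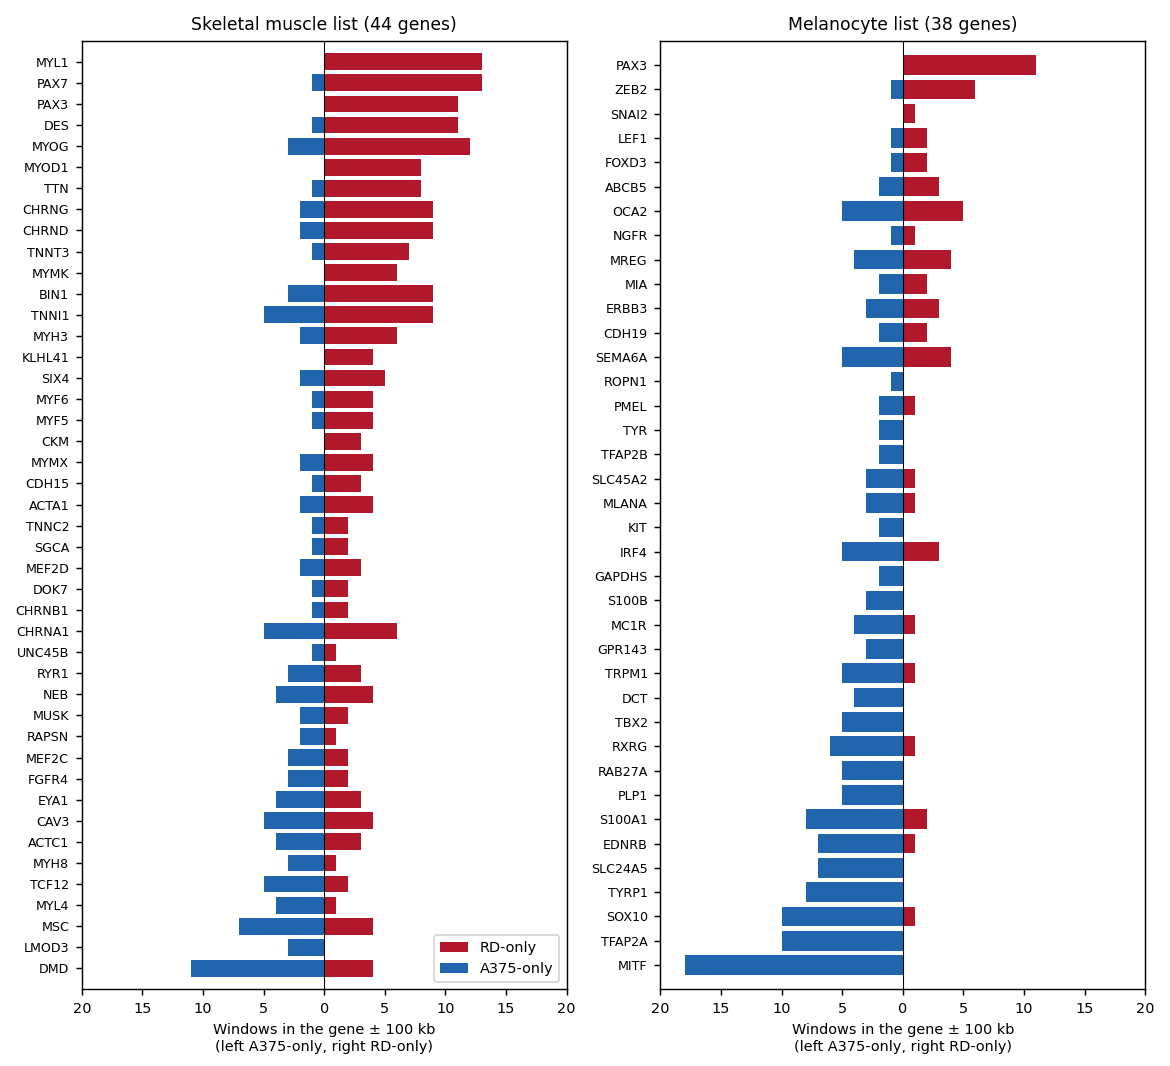
Number of RD-only windows (red, to the right) and A375-only windows (blue, to the left) in each gene with 100 kb on each side, for the 44 skeletal muscle and the 38 melanocyte genes. Of the muscle genes 28 lean to RD, led by MYL1 and PAX7 with 13 RD-only windows each, and of the melanocyte genes 26 lean to A375, led by MITF with 18 A375-only windows, while PAX3, which is in both lists, has 11 RD-only and 0 A375-only windows.

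Among the factors, MYOD1 (chr11:17719571-17722136) had a peak within 1 kb of its start with a fold enrichment over background of 6.78, 7.73 and 6.73 in the RD samples. In A375 such a peak was listed only in replicate 2, with a fold of 2.33. Its locus held 8 RD-only and 0 A375-only windows, and 11, 10 and 11 strict peaks in RD against 3, 6 and 0 in A375. The RD-only windows formed a row on 1 side of the gene: 1 at the gene's lower end, 2 at 5.10 and 5.61 kb from that end, 1 at 19.9 kb, 3 between 30.9 and 33.2 kb and 1 at 65.8 kb. MYOG, the factor of late differentiation, had a start peak with folds of 4.96, 4.25 and 3.77 in RD and none in any A375 sample. PAX7, the factor of muscle stem cells, had folds of 5.56, 4.98 and 5.12 in RD, where A375 had a peak near the start only in replicate 3 (3.18). At PAX7 the strict peaks numbered 9, 10 and 8 in RD and 0 in every A375 sample, without overlap. MYF5 and MYF6, the other factors of the MYOD1 family, had no peak near their starts in any RD sample, although their neighbouring loci held 4 RD-only windows each, counted for both.

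Genes of the neuromuscular junction went the same way. All 4 listed subunits of the muscle acetylcholine receptor (CHRNA1, CHRNB1, CHRND and CHRNG) had an RD-only window at the start. The strongest peak at the start of CHRND had folds of 9.48, 8.68 and 8.64 in RD, and in A375 a peak of 2.75 was listed in replicate 1 only. CHRNB1 also had a window shared by all 6 samples at its start, with folds of 7.74, 8.46 and 6.82 in RD and 5.14, 8.50 and 4.28 in A375. MUSK had folds of 8.35, 9.64 and 9.22 in RD and no start peak in A375, and DOK7, the adaptor that activates MUSK, had lower folds of 3.32, 3.36 and 2.88 in RD and none in A375. RAPSN, which clusters the receptor, had folds of 6.72, 9.68 and 5.17 in RD, but with peaks of 2.86 and 4.28 in A375 replicates 2 and 3 it was not RD-only.

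Contractile and structural genes made up most of the rest. TTN and NEB, which encode the giant filament proteins titin and nebulin, had start folds of 5.89 to 8.01 and 7.55 to 8.78 in RD, and no A375 sample had a peak there. ACTA1 (skeletal alpha-actin), DES (desmin), CKM, KLHL41, UNC45B (a myosin chaperone), RYR1 (the calcium release channel), SGCA (a sarcoglycan), CAV3 (muscle caveolin) and BIN1 (a protein of the transverse tubules) also had RD-only windows at their starts. BIN1 had a shared window as well, with start folds of 5.71, 5.08 and 5.55 in RD and 5.79, 7.57 and 5.53 in A375. At CAV3 the folds were 5.49, 5.38 and 4.12 in RD, and peaks of 2.76 and 3.84 were listed in A375 replicates 1 and 3. Weak A375 start peaks were also listed for CKM in replicate 1 (2.41) and RYR1 in replicate 2 (2.74). In replicate 3 they were listed for ACTA1 (2.93), DES (2.55) and UNC45B (2.93). The RD-only start windows of DES, RYR1, UNC45B, CAV3 and BIN1 lay in RD intervals that touched an A375 interval. DES had 27, 26 and 25 strict peaks in its locus in RD and 9, 11 and 4 in A375. MYL1, a light chain of fast myosin, had no peak within 1 kb of the annotated start in any sample (1 start per gene was used), but its locus held 13 RD-only and 0 A375-only windows. Its strict peaks numbered 16, 14 and 15 in RD and 2, 1 and 0 in A375, far apart. DMD (dystrophin) went the other way, with 4 RD-only and 11 A375-only windows. So did MYL4 (1 and 4), LMOD3 (0 and 3), MYH8 (1 and 3), ACTC1 (3 and 4) and the locus of CAV3 (4 and 5). Strict peaks in the locus of MYL4 numbered 10, 8 and 7 in RD and 18, 21 and 8 in A375.

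**Figure D2:**
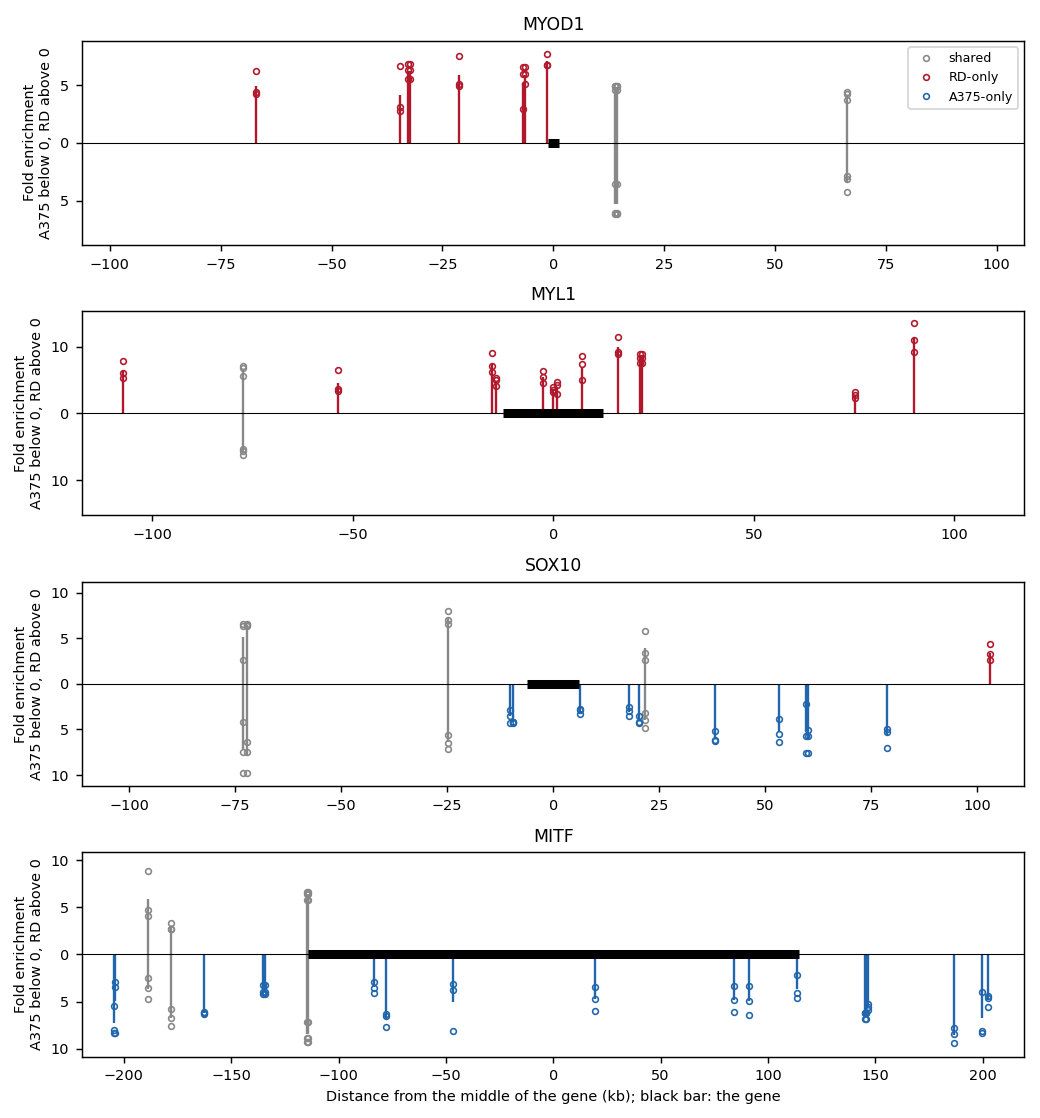
Windows of 4 loci by distance from the middle of the gene in kb, with the fold enrichment of each RD sample above 0 and of each A375 sample below 0 (points) and the mean of the samples of a line (lines). RD-only windows (red) stand at MYOD1 and MYL1, A375-only windows (blue) at SOX10 and MITF, and windows shared by all 6 samples (grey) occur in all 4 loci.

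Counted per sample, the muscle loci held 504, 535 and 449 strict peaks in RD and 395, 445 and 176 in A375. Every RD sample exceeded every A375 sample. The means were 496 ± 43.6 and 339 ± 143 (SD, n = 3 each), a difference of 157 (exact permutation test, two-sided, p = 0.1). Without A375 replicate 3 the difference was 76.0, and with pileups thinned to a common background it was 27.0 (exact permutation p = 0.7). As a share of all strict peaks of a sample the separation was clear of replicate spread, at 109.5 ± 2.06 per 10000 in RD and 66.5 ± 1.53 in A375 (p = 0.1, exact permutation). On this scale RD also lay above A375 without overlap at the loci of HOX genes (142 against 82.5), of genes of mesenchymal and dedifferentiated melanoma states (51.6 against 40.9) and of 10 housekeeping genes (33.2 against 26.4). Neighbouring genes share parts of their loci, and a peak then counts once for each gene.

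**Figure D3:**
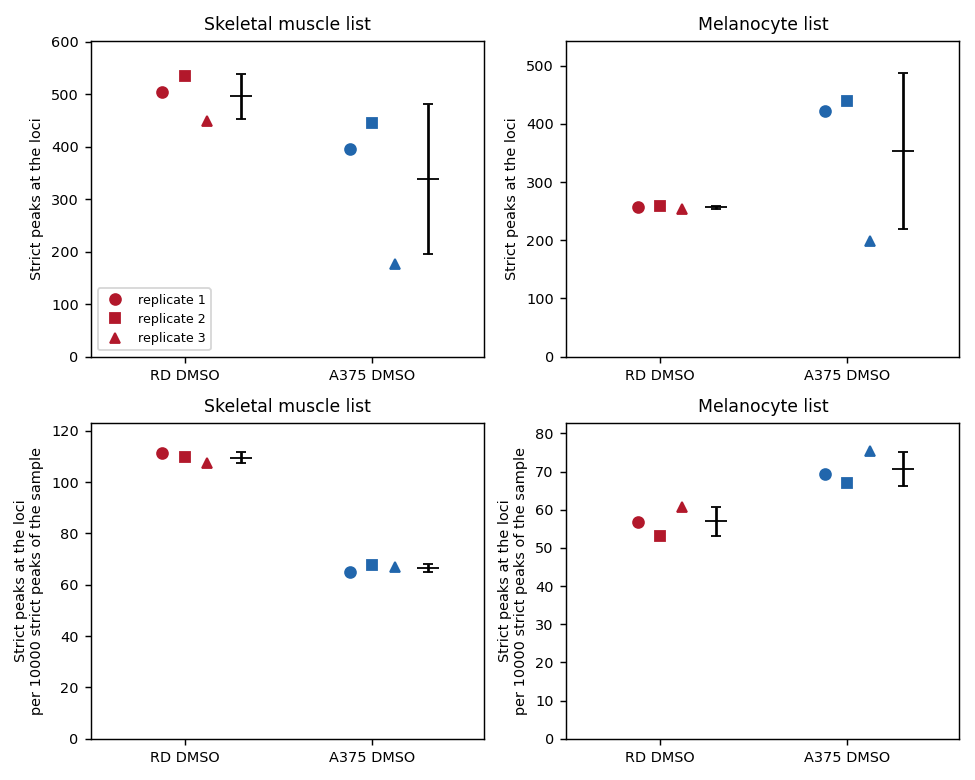
Strict peaks at the loci of the 2 lists in each sample (symbols), as numbers (top) and per 10000 strict peaks of the sample (bottom), with mean and SD (black, n = 3). The muscle loci are higher in every RD sample in both rows, and the melanocyte loci separate in the bottom row only: in the top row A375 replicate 3 has 199 strict peaks against 254 to 259 in RD.

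The chromosomes of the muscle genes bear on these counts. Chromosome 2 held 10.8% to 11.4% of the deposited peaks of the RD samples and 7.12% to 7.31% of those of the A375 samples, and 10 of the 44 muscle genes lie on it. On chromosome 2, 8 of the 10 had an RD-only window at the start, against 6.54% of all genes of that chromosome. Away from it the count was 12 of 34 (35.3%), against 4.05% of all genes there. Of the line-only windows at all muscle loci 67.3% were RD-only, where 44.6% would hold if each locus had the share of its chromosome.

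The melanocyte genes leaned to A375, more around the genes than at their starts. Of 38 listed genes, 8 (21.1%, against 3.44% of all genes) had an A375-only window at the start (CDH19, EDNRB, MC1R, MIA, RAB27A, S100A1, S100B and SOX10). In 4 of the 8 (10.5% of the list, against 1.98% of all genes) it lay in an A375 interval that touched no RD interval. These 4 were CDH19, MC1R, MIA and S100B. EDNRB, RAB27A and S100A1 also had a window shared by all 6 samples at the start. IRF4 and OCA2 (5.26%, against 4.21% of all genes) had an RD-only window there instead. In their loci 26 genes (68.4%, against 45.5% of all genes) had more A375-only windows and 6 (15.8%, against 34.0%) had more RD-only windows, with a median difference of 2 in favour of A375. Of the line-only windows at these loci 27.3% were RD-only, against 39.0% for their chromosomes.

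SOX10 (chr22:37972312-37984555) had 10 A375-only windows and 1 RD-only window in its locus. Strict peaks there numbered 22, 24 and 6 in A375 and 3, 3 and 4 in RD, so all A375 samples lay above all RD samples, replicate 3 by little. SOX10 had no strand in the gene table, so a peak within 1 kb of either end counted as a start peak. All 6 samples had a weak one, with overlapping folds of 3.28, 2.90 and 2.71 in A375 and 3.18, 2.78 and 2.90 in RD. The A375 folds were those of an A375-only window 0.139 kb beyond the higher end. An A375 interval that called this window touched an RD interval, so SOX10 was not among the genes with an untouched A375-only start window. Whether the RD start peaks stood at that end was not recorded. The stronger A375-only windows stood 32.1 to 72.6 kb beyond the higher end of the gene, and the window at 32.1 kb had folds of 6.23, 6.11 and 5.16. MITF (chr3:69739464-69968332) had the most A375-only windows of the list, 18, and no RD-only window. It held 23, 25 and 12 strict peaks in A375 and 3, 1 and 3 in RD. Its annotated start, the only start used for the gene, was open in both lines, with folds of 7.14 to 9.26 in A375 and 5.77 to 6.64 in RD. The 18 windows spread from 90.2 kb before the start through the gene body to 88.0 kb beyond its end.

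TFAP2A, a factor of neural crest and melanocytes, had 10 A375-only windows and no RD-only window, and 18, 16 and 6 strict peaks in A375 against 3, 4 and 2 in RD. Among receptors, EDNRB (endothelin receptor of melanoblasts) had 7 A375-only windows and 1 RD-only window. Its start folds were 6.79, 5.45 and 5.30 in A375 and 3.85, 4.27 and 5.03 in RD. MC1R (the melanocortin receptor) had a weak start peak in A375 alone, with folds of 3.21, 2.85 and 3.01. ERBB3 had 3 windows and NGFR 1 window of each line-only class. KIT had 2 A375-only and 0 RD-only windows, with start peaks in every RD sample and in A375 replicates 1 and 2. The glial and melanoma marker S100B had start folds of 7.08, 10.1 and 4.81 in A375 and no peak in RD. Of the pigment genes, TYRP1 had 8 and SLC24A5 7 A375-only windows with no RD-only window, but neither had a start peak in any of the 6 samples. Others leaned less. TYR had 2 and GPR143 3 A375-only windows with no RD-only window. MLANA and SLC45A2 had 3 A375-only windows and 1 RD-only window each, PMEL 2 and 1, and OCA2 5 and 5. PMEL had no strand in the gene table, and folds near its ends were 8.49, 6.62 and 8.88 in RD and 4.72, 5.62 and 4.00 in A375. DCT, which encodes dopachrome tautomerase, had 4 A375-only windows in its locus. Yet the peak at its annotated start (1 start per gene was used) was in RD, with folds of 9.93, 10.9 and 9.46. In A375 a peak of 3.37 was listed there in replicate 2 only. At the start of IRF4, a factor of pigmentation and lymphocytes, the folds were 5.18, 7.05 and 6.34 in RD with no A375 peak. PAX3 was open at its start in both lines and had 21, 19 and 22 strict peaks in RD and 7, 9 and 3 in A375.

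Summed over the melanocyte loci, strict peaks numbered 257, 259 and 254 in RD and 423, 440 and 199 in A375. Replicate 3 of A375 fell below RD and the other two lay far above. The means were 257 ± 2.52 and 354 ± 135 (SD, n = 3 each; exact permutation p = 0.4), and without A375 replicate 3 the difference was −175 (RD minus A375; exact permutation p = 0.1). Per 10000 strict peaks of a sample the groups did not overlap, at 56.9 ± 3.82 and 70.7 ± 4.34 (exact permutation p = 0.1). The loci of 15 epithelial genes, looked at as markers of other cells, separated in the same direction, at 17.7 ± 0.243 and 21.1 ± 1.34 (exact permutation p = 0.1). Starts did not separate the lines in number: 24.0 ± 2.00 of the 38 genes had any peak within 1 kb in RD and 24.0 ± 1.00 in A375.

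Other gene lists gave the scale for these. Of 39 HOX genes, the position-specifying homeobox genes, 7 (17.9%, against 4.21% of all genes) had an RD-only window at the start (HOXA3, HOXA7, HOXA9, HOXA10, HOXA11, HOXD3 and HOXD11) and 3 (7.69%, against 3.44%) an A375-only window (HOXC9, HOXD1 and HOXD10). HOXA10 had start folds of 4.32, 4.22 and 4.97 in RD and no peak in A375. HOX loci overlap heavily, and chromosome 7, which holds HOXA, carried 7.85% to 8.64% of the peaks of RD samples and 5.87% to 6.13% of those of A375. Of 26 genes of mesenchymal and dedifferentiated melanoma states, 18 had a shared window at the start (69.2%, against 56.0% of all genes), 2 an RD-only one (7.69%, against 4.21%) and 1 an A375-only one (3.85%, against 3.44%). SOX9 had an RD-only window there, with folds of 7.62, 8.30 and 6.09 in RD, and peaks within 1 kb of the start were also listed in A375 replicates 2 and 3, with folds of 3.06 and 3.14. All of the 20 AP-1 and MAPK feedback genes had a start peak in all 6 samples, none had an RD-only window at the start, and DUSP5 and ETV4 each had an A375-only window beside shared ones. Around these 20 genes 13 loci had more A375-only windows (65%, against 45.5% of all genes) and 3 more RD-only windows (15%, against 34.0%), and the summed strict peaks, 228 ± 33.6 in RD and 271 ± 101 in A375, overlapped (exact permutation p = 0.6).

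Markers of cells that neither culture should hold had few strong start peaks but many weak ones. Of 15 epithelial genes a strict start peak was present in 2 in each RD sample and in 1 to 4 in the A375 samples, of 10 blood genes in 2 in RD and 2 to 3 in A375, and of 8 neuronal genes in 1 to 2 in RD and 1 in A375. Over all protein-coding genes a strict start peak was present in 54.9% to 57.7% in RD and 41.9% to 56.8% in A375. Start peaks of any strength were listed for 4, 4 and 11 of the epithelial genes in RD replicates 1, 2 and 3 and for 7, 8 and 5 in A375, for 6 to 8 of the blood genes in RD and 6 to 7 in A375, and for 4 to 6 of the neuronal genes in RD and 2 to 5 in A375. Over all genes that share was 72.0% to 73.0% in RD and 67.2% to 71.97% in A375. The summed strict peaks of their loci ran from 74 to 85 in RD and 52 to 147 in A375 for the epithelial list, from 49 to 73 and 38 to 97 for the blood list, and from 27 to 35 and 21 to 40 for the neuronal list. PTPRC, the leukocyte antigen CD45, and the epithelial factors ELF3, CDX2 and GATA3 had no start peak in any sample. EPCAM had a weak one in RD only (3.93, 4.27 and 3.18), and KRT18 one of 5.30, 3.95 and 3.16 in A375 with a peak of 3.27 in RD replicate 3. The part of other cells in the results was not tested. All 10 ribosomal and housekeeping genes looked at had a shared window at the start and none had a line-only one. Per 10000 strict peaks their loci nevertheless separated the lines, at 33.2 ± 1.36 in RD and 26.4 ± 3.43 in A375 (exact permutation p = 0.1, n = 3 and 3).

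The strongest line-only windows lay at other genes. By mean rank of −log10 p within the lists of their line, the first 8 RD-only windows were nearest to CYP20A1, PRR18, HES6 (2 windows), PLEKHA1, SLC2A8 (2 windows) and GLUL, and 6 of the 8 belonged to RD intervals that touched an A375 interval, which did not reach 100 bp into the window. At CYP20A1, a cytochrome P450 gene, the window (chr2:203238331-203238830) lay 437 bp from the start and had folds of 13.8, 12.9 and 13.8. It was called in all 3 FHT-1015 samples of A375 as well, and in 9 of the 15 DMSO samples of the other lines, so it was line-only among the 6 samples of the rule alone. Windows at HES6, a basic helix-loop-helix factor gene, shared 1 interval with folds of 7.59, 7.91 and 7.65. SLC2A8, a glucose transporter gene, had its windows in an interval of RD alone, with folds of 9.69, 9.42 and 10.5. The first 8 A375-only windows were nearest to CNTLN, LRRTM1, BRINP2, ATOX1, OR14L1, LMX1A, HYLS1 and FAM78B, and 7 of these 8 lay over 1 kb from a gene start. The first stood 117 kb from the start of CNTLN (chr9:17018161-17018660), with folds of 14.7, 16.3 and 12.9, and the second 1177 kb from that of LRRTM1. All 8 of these A375-only windows were called in all 3 FHT-1015 samples of A375, and 5 of the 8 RD-only windows in all 3 FHT-1015 samples of RD. At least 1 FHT-1015 sample of the other line called 2 of the 8 A375-only and 4 of the 8 RD-only windows.

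Some genes drew many line-only windows. RD-only windows were nearest to 6644 genes, with a median of 1 window, and A375-only windows to 8042 genes, with a median of 2. AUTS2, a large gene of neural development, was nearest to 38 RD-only and 0 A375-only windows, followed by SOX11 (28), IRS1 (26), KLHL29 (24) and CDH4 (23). IRS1 encodes an adaptor of insulin and IGF receptors, and SOX11 a SOX factor of progenitor cells. For A375 the genes were TENM3 (31), DAOA (29), MAF (28), SORCS1 (28) and EFNB2 (27). MAF is a leucine zipper factor, and EFNB2 encodes ephrin-B2. The count is not corrected for the length of a gene or the distance to its neighbours, and SOX11 and KLHL29 were also nearest to 14 and 20 A375-only windows.

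Line-only windows stood in runs. Along the windows called in all 3 samples of either line, the longest unbroken row of RD-only windows had 15 and lay in AUTS2 (chr7:69620097-69865635, 246 kb). It held 40, 40 and 42 RD peaks of any strength and 6, 11 and 9 A375 peaks. The longest row of A375-only windows had 35 and covered 4.15 Mb of chromosome 13 that includes PCDH9 (chr13:62705955-66859330). There the A375 samples had 88, 129 and 133 peaks and the RD samples 17, 10 and 11. The second A375 row, 29 windows over 1.59 Mb (chr6:8803173-10395660), ended beside TFAP2A and contained no protein-coding gene, with 61, 72 and 54 A375 peaks against 5, 0 and 2. A row of 12 RD-only windows on the X chromosome (chrX:7083307-7928196, 845 kb, with STS and PNPLA4) held 40, 19 and 23 RD peaks and 0 peaks of any strength in each A375 sample. These rows were read after the windows were ranked by length, and apart from the longest of each line they were chosen after their values were seen.

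The balance of the lines differed between chromosomes. RD-only windows made up 41.1% of the 38917 line-only windows, but 12.3% on chromosome 13 (148 against 1057), 24.1% on chromosome 15 and 28.7% on chromosomes 5 and X, and 58.2% on chromosome 2, 57.7% on chromosome 22 and 57.0% on chromosome 7. The share of a sample's deposited peaks on a chromosome moved with it. Chromosome 13 held 1.0999%, 0.956% and 0.841% of the peaks of the RD samples and 3.10%, 3.19% and 3.58% of those of the A375 samples, with no overlap. DNA content per chromosome was not measured here, and its part in the counts was not tested.

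**Figure D4:**
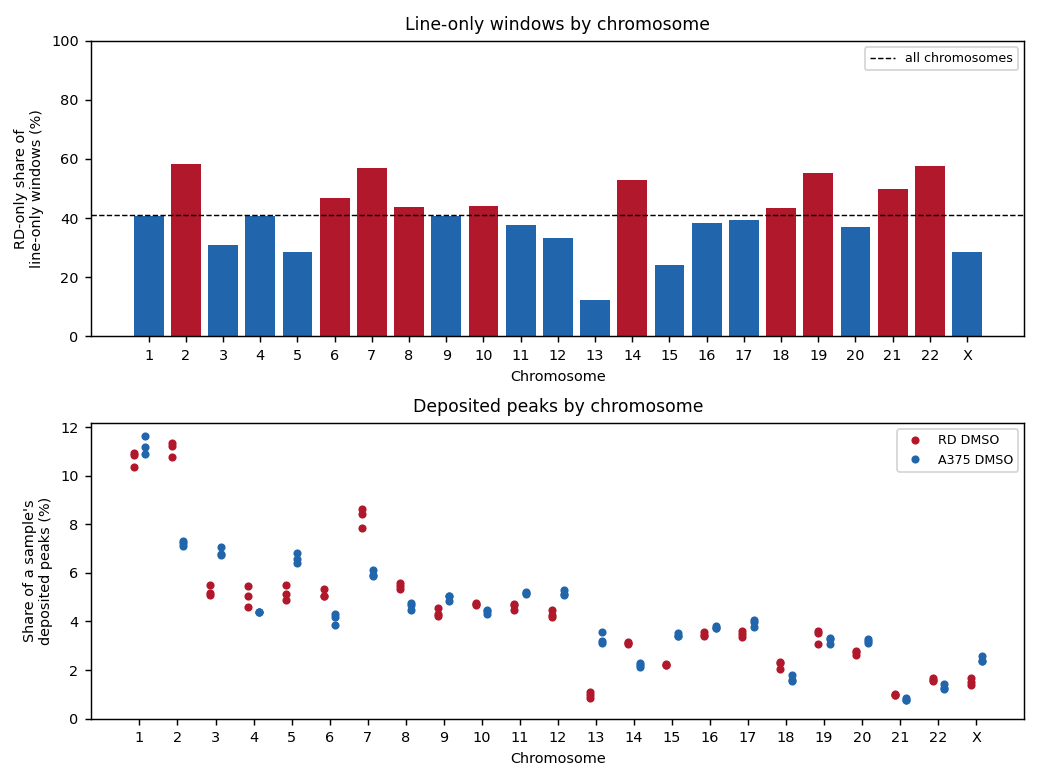
Share of RD-only among line-only windows on each chromosome (bars, red above and blue below the dashed value for all chromosomes, 41.1%) and share of each sample's deposited peaks on it (points). Chromosomes 2 and 7 hold a larger share of the peaks of every RD sample, and chromosomes 13 and 15 of every A375 sample.

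The FHT-1015 samples, which did not define the windows, kept the order of the lines. RD-only windows were called at 38.7%, 30.5% and 53.7% in the FHT-1015 samples of RD and at 6.31%, 10.04% and 8.64% in those of A375. All RD values lay above all A375 values, with a mean difference of 32.7 percentage points (exact permutation test, two-sided, p = 0.1, n = 3 and 3). A375-only windows were called at 44.7%, 73.0% and 55.4% in the FHT-1015 samples of A375 and at 6.02%, 4.72% and 6.998% in those of RD, a difference of 51.7 points in the other direction (exact permutation p = 0.1). Over all windows of the 6 lists these samples had calls at 11.6% to 19.5%. Each line's windows were above that level in its own samples and below it in the other line's. All windows include 232887 called in 1 RD sample alone and 157893 in 1 A375 sample alone. The level is therefore no matched baseline for windows called in 3 samples. These samples differ from the others by the inhibitor as well, and its part in the shares was not tested.

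Among the other lines, 92-1, a uveal melanoma line, had the highest share of A375-only windows with a peak of any strength. A375-only windows were called at 39.7%, 32.0% and 28.5% in its DMSO samples, and RD-only windows at 23.3%, 19.5% and 15.9%. The excess of A375-only over RD-only windows was 16.4, 12.6 and 12.6 points in 92-1. It was 7.01 to 7.57 in HCT116 (colorectal), 3.99 to 4.92 in MV411 (leukaemia), −0.424 to 0.979 in 22RV1 (prostate) and −4.49 to −2.51 in DU4475 (breast), below every 92-1 sample in each line (exact permutation p = 0.1 for each of the 4 pairs, also 0.1 after Benjamini-Hochberg adjustment). All 3 samples of 92-1 called 3744 A375-only windows (16.3%) and 813 RD-only windows (5.08%). The 92-1 lists were the longest, at 355876 to 431956 peaks, and the part of list length in the excess was not tested. With strict peaks the order did not hold: MV411 had one at 14.6% ± 0.812 of the A375-only windows and 92-1 at 12.4% ± 8.49 (SD, n = 3 each). The strict excess was 14.5, 6.84 and 4.34 points in 92-1, and its lowest sample lay within the range of MV411 (4.03 to 4.38) and of HCT116 (3.74 to 4.38). No call in any of the 15 samples was found for 3258 RD-only windows (20.3%), 3597 A375-only windows (15.7%) and 246 shared windows (0.934%).

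**Figure D5:**
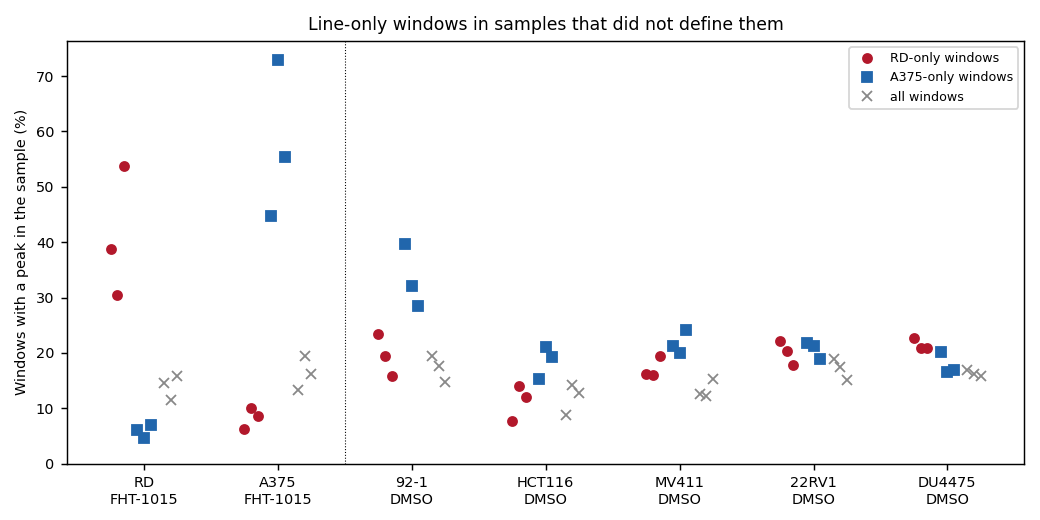
Percent of RD-only windows (red circles), A375-only windows (blue squares) and all windows (grey crosses) with a peak in each sample that did not define them. Left of the dotted line each line's own windows stand highest in its FHT-1015 samples, and right of it 92-1 has the widest gap between A375-only and RD-only windows.

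The rule had a sharp edge that many windows fell near. RD-only windows had median folds of 4.36, 4.27 and 3.89 in RD replicates 1, 2 and 3, and 40.2%, 43.0% and 34.4% of them had a strict peak there. The 32192 windows called in 2 RD samples and no A375 sample had median folds of 2.76, 2.85 and 2.77 where called, and 1.295% to 2.16% strict peaks. The 5245 windows that missed the rule by 1 A375 call had medians of 4.40, 4.27 and 4.01. For A375 the medians were 5.26, 5.70 and 4.08 for the A375-only windows, 3.49, 3.51 and 3.11 for the 24990 windows called in 2 samples, and 5.53, 5.96 and 4.18 for the 7947 windows with 1 RD call.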

How the data were processed

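ATAC-seq was done on RD and A375 cells, in 3 samples per line and treatment, and libraries were size-selected on both sides with beads, per the labels' protocols. The submitters' processing notes name Bowtie2, Picard, MACS2, limma and HOMER and the build hg38, without versions or order. Whether reads were shifted for the transposase is not given in the sources used. Peaks were deposited per sample, so replicates were not pooled. A peak's fold is a ratio over background and comes from the authors. The deposited p-value and q-value are −log10 numbers, and the lowest −log10 p of each list was 2.00. The deposited score was not used.

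Windows of 500 bp were picked around summits on chromosomes 1 to 22 and X, strongest percentile of −log10 p first and without overlap. Gene starts were those of 19974 RefSeq protein-coding genes (GRCh38.p14). For the 4162 without a strand either end was used. The background was solved from fold and p as a Poisson pileup, which gave whole pileups within 0.01 of −log10 p for at least 99.975% of the 4000 peaks solved per list. Depth in reads is unknown, and this background limits which weak peaks a list can hold. Thinning drew pileups down to 0.5 of the lowest background and kept −log10 p of at least 5. Windows, thinning and background were checked on simulated lists. Intervals are Wilson at 95%. Tests are exact permutation tests over samples. Promoter motifs were searched on both strands and counted once per promoter: CAGCTG and CAGGTG (myogenic E-boxes), CTAAAAATA (MEF2), ACAAAG and ACAATG (SOX), TCATGTG and CACGTG (MITF), GCCNNNGGC (TFAP2), TGANTCA (AP-1), ACATTCC (TEAD), TGTGGTT (RUNX), CCGGAAG (ETS), GGGCGG (SP), TGTTTAC (FOX), and the NFI and CTCF motifs.

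Named genes were the muscle and melanocyte list members with a line-only window at the start, the 8 strongest windows and the 5 genes nearest to the most windows per line, MYOD1, SOX10 and the longest run. Other names were chosen after their values were seen. The members and the gene lists were chosen with earlier results of these data known, and 1 gene of the muscle list is not reported here. Python 3.11.15, numpy 2.4.6, pandas 2.3.3 and scipy 1.17.1 were used. FHT-1015 samples of the other lines were not used.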

Additional observations from a re-analysis of the deposited data

How the results depend on the processing

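The numbers of line-only windows moved with the strength asked of a peak. With strict peaks for presence and absence there were 6223 RD-only, 7439 A375-only and 13891 shared windows. With strict peaks for presence and any peak for absence there were 3923, 4375 and 13891. From the 10000 strongest peaks of each list came 2275, 1917 and 4003, where RD-only exceeded A375-only. After thinning to a common background there were 2693, 6331 and 10007. Leaving out 1 replicate gave 17145 to 27178 RD-only, 25325 to 36280 A375-only and 26997 to 29824 shared windows, the highest A375-only number without A375 replicate 3 and numbers of 25908, 27136 and 27178 RD-only windows without RD replicates 1, 2 and 3. Overlaps of 1 and 250 bp, merged intervals (13889, 19273 and 20304) and intervals that touch no interval of the other line (13434 and 19493, an alternative added after the data were seen) stayed within 1.5 times.

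The share of RD-only windows within 1 kb of a start was 15.9%, 10.4%, 57.1% and 22.2% under those first 4 settings, 4.03% for untouched intervals, 3.54% within 500 bp, 8.26% within 2500 bp and 4.23% to 7.03% leaving out 1 replicate. For A375-only windows it was 4.49%, 4.00%, 24.0%, 6.97%, 2.21%, 1.54%, 5.77% and 3.01% to 3.59%. It was the higher for RD-only windows under each of these settings.

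The log2 ratio of strict peak numbers, RD over A375, was −0.0648 (exact permutation p = 1). It reversed to 0.19 with all deposited peaks, 0.019 with q below 0.05, 0.12 without A375 replicate 1 and 0.17 without A375 replicate 2, over a leave-one-out range of −0.49 to 0.17. The difference in gene start share reversed only over all deposited peaks (−0.308 points) and ran from 11.7 to 17.7 points leaving out 1 replicate. Differences at the muscle loci ran from 76.0 to 210.5 and at the melanocyte loci from −175 to −54.3 in the same way, and those in the FHT-1015 samples from 26.3 to 37.9 and from 44.1 to 58.2 points. The cause of the changes was not tested.

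Replicate numbers did not pair the lines: same-numbered samples correlated at −0.0126, 0.0271 and 0.0179 over the 26349 shared windows. With the replicate block, signs flipped within 3 pairs cannot give a p below 0.25. It gave 1 for the log2 ratio of −0.0648, 0.25 for the start share of 13.7 points, the muscle loci (157) and both FHT-1015 differences (32.7 and 51.7), and 0.5 for the melanocyte loci (−97.3). Motifs within peaks were not run, because no genome sequence was used here.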
